A study of Mus musculus with 22 samples.

Results

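Collagens are the secreted triple-helical proteins of the extracellular matrix, and each triple helix is wound from 3 chains that are encoded by different genes or by copies of the same gene. The collagen genes of 22 single mouse astrocytes were taken as the rows of the count table whose symbol matches Col, a type number, the letter a and a chain number. 45 of 23453 rows matched. 44 of them were collagen genes, and the other was *Col4a3bp*, which encodes the ceramide transfer protein CERT and is no collagen. *Col4a3bp* was counted as a match to the symbol pattern and left out of all collagen values unless stated.

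All 22 cells were cortical astrocytes of C57BL/6 mouse pups (P0-P1), grown as primary cultures and loaded with a calcium indicator. Each cell was imaged while EtOH was applied at the highest dose of the study, typed by its calcium signal and then aspirated for RNA amplification. Per the study's text, cells were taken at an early or a late time after EtOH, and the labels used here do not say which cell was taken when, so type and time cannot be told apart. A sustained signal marked the 6 S-type cells, a transient signal the 6 T-type cells and mixed signals the 5 M-type cells, and 5 cells were nonresponsive (NR). All cells had been exposed to EtOH, so NR is a response type and not an untreated control. The cultures had been freed of meninges, shaken and treated with cytosine arabinoside, and they are a model of astrocytes of newborn cortex kept in serum until shortly before imaging. Which pup or culture dish a cell came from is not in the labels, and each type therefore counted as 1 sample. No difference between types could be tested, no p-value is given, and every ratio below is a description of these cells. Ratios of levels are given with a 95% interval taken from the exact binomial split of the pooled reads and shifted onto the ratio of levels. It is therefore not an exact interval of that ratio. This interval holds only the error of counting, since the reads were amplified and carry no molecular identifiers.

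Fibril-forming collagens build the banded fibers of connective tissue, and the collagens IV build the sheet-like network of basement membranes. In brain the basement membrane lies around vessels and under the glial surface, where astrocyte endfeet rest on it, and fibrillar collagens are largely confined to meninges and vessel walls. FACIT collagens (fibril-associated collagens with interrupted triple helices) decorate fibrils, short-chain collagens form open lattices, and the transmembrane collagens stay on the cell surface.

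Cells held between 2937786 and 22131076 reads, and levels below are counts divided by a size factor per cell (normalized counts), averaged over the cells of a type. Where values of single cells are listed, they follow the order of the cells' names within the type. Size factors ran from 0.183 to 2.31, and 3 T-type cells, J162_16, J163_18 and J164_19, had size factors under 0.6, so comparisons with T-type cells are also given without them. Astrocyte markers were present in every cell. All 14 genes of that list had reads, and their summed level lay between 1470 and 11200 reads scaled to 1000000 (CPM). *Aldoc* was read in 21 cells, *S100b* in 16 and *Gjb6* in 2. The other genes of the list, among them *Gfap*, *Aqp4*, *Slc1a3* and *Aldh1l1*, were read in all 22 cells. Of 13 fibroblast and meningeal genes other than collagens 12 had reads, with a summed level of 253 to 951 CPM in NR cells, 222 to 956 in T-type, 149 to 650 in S-type and 230 to 969 in M-type cells. Most of it was *Ogn*, read in 22 cells, with *Foxc1* in 21, *Bgn* in 20 and *Pdgfra* in 11 cells. *Twist1* was read in 7 cells, *Dcn* in 5, *Fbln1* in 3, *Lum* and *Dpt* in 2 each, *Slc6a13*, *Tbx18* and *Igf2* in 1 each and *Aldh1a2* in none. Of 11 mural genes 8 had reads, led by *Acta2* and *Tagln*, with summed levels of 33.9 to 2200 CPM in NR cells, 115 to 5130 in T-type, 559 to 9470 in S-type and 52.8 to 3110 in M-type cells. *Acta2* and *Tagln* were read in 22 cells, *Notch3* in 19, *Pdgfrb* in 15 and *Cspg4* in 14, while *Rgs5*, *Vtn* and *Myh11* were at 0 in every cell. Of 8 endothelial genes 6 had reads and the summed level was at most 200 CPM, with *Kdr* read in 13 cells, *Flt1* in 9, and *Cldn5* and *Cdh5* at 0. The summed level of 10 microglial genes was at most 44.7 CPM and was highest in NR cells, with a median of 29.9 CPM there and 0.0311 to 2.47 CPM in the other types. Summed levels were 32.2 to 3330 CPM for 9 genes of the oligodendrocyte lineage, with *Olig1* read in 22 cells, *Olig2* in 21 and *Sox10* at 0. They were 38.1 to 2080 CPM for 10 neuronal genes, with *Map2* read in 22 cells, *Stmn2* in 20, *Tubb3* in 17 and *Slc17a7* at 0. The part of other cells' RNA in the collagen values was not tested.

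A few genes carried most of the collagen reads. 42 of the 44 collagen genes had at least 1 read, and *Col20a1* and *Col28a1* had none in any cell. The collagen genes held 624801 reads together, of which the 11 fibril-forming genes took 53.0%, the 3 short-chain genes 25.5%, the 9 genes of the basement membrane network and multiplexins 17.7%, the 9 FACIT genes 3.69% and the 4 transmembrane genes 0.104%. *Col5a2*, a fibril-forming chain of type V collagen, and *Col8a1*, a short-chain collagen that forms hexagonal lattices, made up 61.9% of all collagen reads. *Col5a2* was the collagen with the most reads in 13 cells, *Col8a1* in 8, and *Col4a6* in the T-type cell J165_23. *Col5a2* led in 4 cells each of the S-type, M-type and NR but in 1 T-type cell, and *Col8a1* led in 4 T-type cells, 2 S-type cells and 1 cell each of the M-type and NR.

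Several collagens of connective tissue had few reads. *Col3a1*, a chain of the fibrils of soft tissue, had 11 reads in all cells together. The 6 type VI chains, which make the beaded filaments around connective-tissue cells, had 63 reads, 46 of them from *Col6a1*. *Col1a1*, the major chain of type I collagen, had 230 reads in 7 cells, and the S-type cell J155_9 alone held 98.9% of its S-type level. Its partner *Col1a2* differed from these, with 27206 reads in 19 cells.

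**Figure D1:**
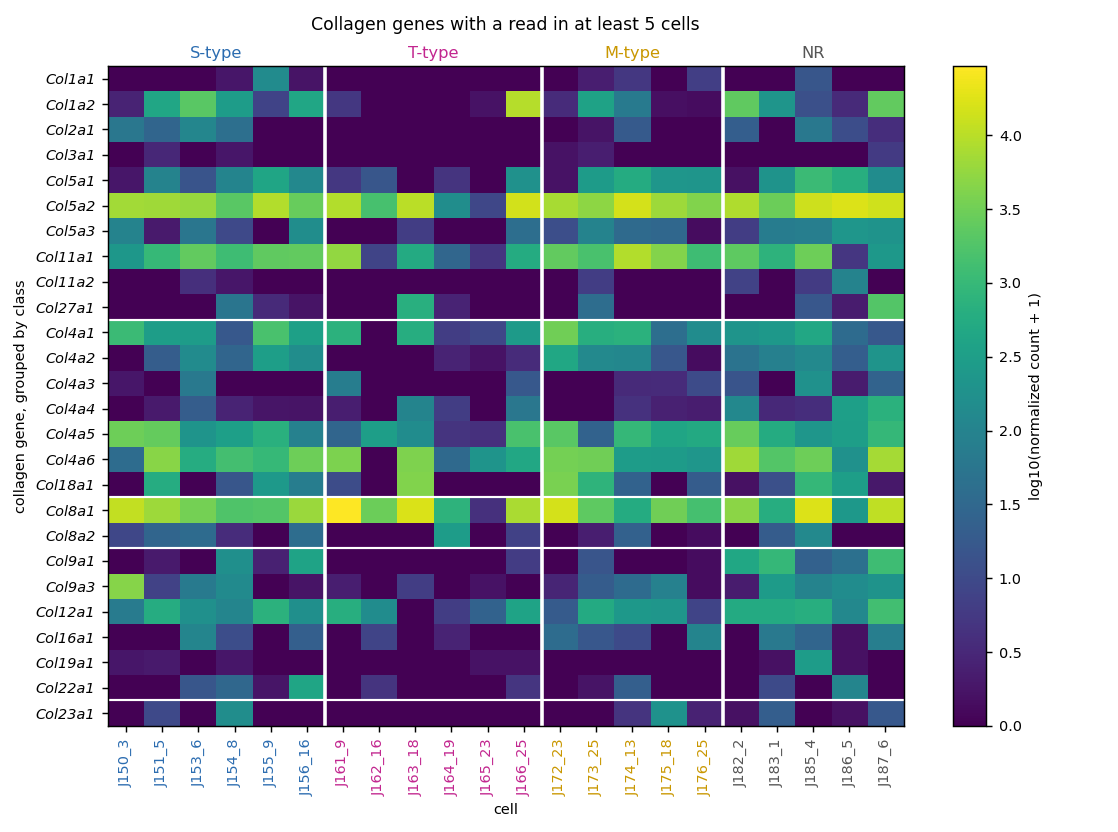
Heat map of 26 collagen genes (rows, grouped by class) in 22 cells (columns, grouped by response type), with color showing log10 of the normalized count plus 1. *Col5a2* and *Col8a1* were read in all 22 cells, and most other collagens were high in some cells and at 0 in others of the same type.

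26 collagen genes had a read in at least 5 cells and were compared between types. 23 of these averaged 10 normalized counts or more over the 22 cells and are described singly. The 3 compared at lower mean levels were *Col1a1*, *Col3a1* and *Col11a2*. The 16 genes read in 1 to 4 cells held 242 reads together. *Col7a1*, the anchoring-fibril collagen, led them with 106 reads, 75 of them in the M-type cell J172_23, and *Col17a1* and *Col9a2* had 30 of 31 and 27 of 27 reads in a single cell.

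The share of a cell's reads that fell on collagens ranged from 0.00207% (95% interval 0.00187 to 0.00228) in the T-type cell J165_23 to 0.382% (0.379 to 0.385) in the NR cell J185_4. Its median was 0.238% in NR cells, 0.156% in S-type, 0.152% in M-type and 0.118% in T-type cells. T-type cells spread most widely. J161_9, J163_18 and J166_25 had 0.225%, 0.227% and 0.312%, and J162_16, J164_19 and J165_23 had 0.0108%, 0.0110% and 0.00207%. The lowest share outside the T-type was 0.0733% in an S-type cell, above these 3 T-type cells, and the ranges of all 4 types overlapped. Leaving out 1 T-type cell moved the T-type median between 0.0110% and 0.225%, so the T-type median rests on which side of this gap a single cell is counted.

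The number of collagen genes with a read had a median of 23 in NR cells, 22 in M-type, 20 in S-type and 12.5 in T-type cells. T-type cells ranged from 9 to 18 and NR cells from 19 to 26, and these ranges did not overlap. Genes of any kind with a read also had their lowest median in T-type cells. It was 9203.5 (6319 to 10614) in T-type and 10944 (9696 to 13070) in NR cells, 11356 in S-type and 11300 in M-type cells. The depth of the cells differed, so each cell was also thinned to 2937786 reads, which left no cell out. The medians were then 19, 15, 15.5 and 11 in the same order, and T-type cells with 5 to 16 genes overlapped NR cells with 14 to 21. With at least 5 reads required, the medians were 20 in NR, 13 in M-type, 15.5 in S-type and 8 in T-type cells, and the T-type range of 4 to 15 met the NR range of 15 to 22.

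**Figure D2:**
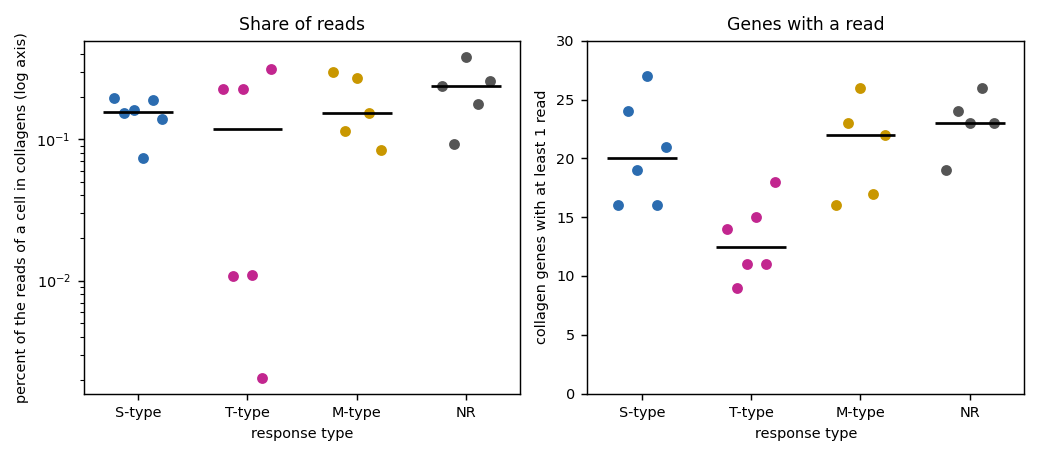
Share of reads in collagen genes (percent) and number of collagen genes with a read in each of the 22 cells, by response type, with a black bar at the median of a type. T-type cells split into 3 at 0.0110% or less and 3 at 0.225% or more, and NR cells had between 19 and 26 collagen genes with a read.

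Among fibril-forming collagens, *Col5a2* (chromosome 1, 45374321 to 45503282, GRCm38) had reads in all 22 cells, and its RPKM (reads per kilobase of exon, scaled to the depth of a cell) averaged 63.3. Its normalized counts were 2088, 6315 and 9154 in S-type cells (lowest, median and highest), and 7.78, 5193 and 14531 in T-type cells. The M-type cells had 7613, 5214, 14934, 6521 and 4126, and the NR cells 8492, 2872, 13409, 17079 and 14133. All types overlapped, and the 2 T-type cells with 7.78 and 151.4 counts were below every other cell. The mean was highest in NR cells, with log2 ratios to NR of -0.99 (-1.01 to -0.98) for S-type, -0.93 (-0.95 to -0.92) for T-type and -0.54 (-0.56 to -0.53) for M-type cells, all short of a 2-fold difference.

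The other type V chains were much lower per length. *Col5a1*, which joins *Col5a2* in the common heterotrimer that starts fibrils, averaged 2.10 RPKM, and *Col5a3*, a chain of a rarer trimer, 0.611 RPKM. *Col5a2* was the higher chain in 22 of 22 cells against each. The mean level of *Col5a1* was 417 normalized counts in NR, 255 in M-type, 125 in S-type and 33.9 in T-type cells, and a single T-type cell, J166_25, held 89.0% of the T-type level. *Col5a3* was at 115 in NR cells (5.46 to 220), 53.2 in S-type, 35.2 in M-type and 7.63 in T-type cells, and was lower than in NR by at least 2-fold in all 3 responding types.

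*Col11a1*, the type XI chain that joins type V in thin fibrils, was read in every cell and averaged 12.6 RPKM. Its M-type cells had 2511, 1531, 8956, 4333 and 1227 normalized counts, while NR cells had 2246, 782, 3074, 4.19 and 237. The groups overlapped, and the M-type mean was 1.55 higher than NR on the log2 scale (1.52 to 1.58), which became 0.92 without the M-type cell J174_13. In T-type cells its median was 282, and J161_9 held 82.9% of the T-type level. *Col11a2*, its partner, had 198 reads in 6 cells.

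*Col1a2*, the second chain of type I collagen, was read in 19 cells and reached 9466 normalized counts in the T-type cell J166_25. The other T-type cells had 4.22, 0, 0, 0 and 0.648. S-type cells ranged from 1.78 to 2073 with a median of 365, M-type cells had 2.50, 370, 68.4, 0.519 and 0.432, and NR cells 2385, 212, 11.5, 2.39 and 2471. The T-type mean was 1.54 higher than the S-type mean on the log2 scale (1.49 to 1.59), and the ratio was -9.12 without J166_25. The M-type ratio to NR was -3.52 (-3.64 to -3.41), and this stayed between -5.82 and -2.88 with any cell left out.

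*Col2a1*, the collagen of cartilage, had no read in any T-type cell. It had 57.7, 28.2, 110, 41.2, 0 and 0 normalized counts in S-type cells, 20.6, 0, 59.7, 10.2 and 2.78 in NR cells and was over 1 in 1 of 5 M-type cells. T-type cells were thus at least 63.6-fold lower than S-type and at least 29.99-fold lower than NR cells, against a floor of 3 reads over the T-type. *Col27a1*, a fibril-forming collagen of cartilage and other tissues, was carried by single cells. The NR cell J187_6 had 1896 normalized counts and held 99.2% of the NR level, and the T-type cell J163_18 had 649 and 99.7% of the T-type level.

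Collagen IV has 6 chains in 3 gene pairs, and the genes of a pair lie head to head. *Col4a1* and *Col4a2*, the chains of most basement membranes, lie on chromosome 8 with starts 21 bases apart, so that their first bases overlap. *Col4a3* and *Col4a4*, known from kidney and cochlea, lie on chromosome 1 with starts 72 bases apart, and *Col4a5* and *Col4a6* lie on the X chromosome with starts 1309 bases apart. The sequences between or before the starts of the last 2 pairs are shown, and a link between them and the levels of the chains was not tested. They were read from the RefSeq promoter table (GRCm38.p6), 5′ to 3′, with capitals for a CCAAT box or a GC box (GGGCGG) on either strand.
*Col4a3*/*Col4a4*, chr1:82586850-82586920, plus strand, all bases between the starts: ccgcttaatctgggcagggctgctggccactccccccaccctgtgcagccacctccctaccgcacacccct
*Col4a5*, chrX:141475169-141475384, plus strand, 216 bases before the start: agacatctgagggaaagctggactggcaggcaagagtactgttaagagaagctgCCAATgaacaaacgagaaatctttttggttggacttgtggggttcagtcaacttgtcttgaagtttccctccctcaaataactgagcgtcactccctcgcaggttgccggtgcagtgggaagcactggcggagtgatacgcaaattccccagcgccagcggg
*Col4a6*, chrX:141474077-141474326, minus strand, 250 bases before the start: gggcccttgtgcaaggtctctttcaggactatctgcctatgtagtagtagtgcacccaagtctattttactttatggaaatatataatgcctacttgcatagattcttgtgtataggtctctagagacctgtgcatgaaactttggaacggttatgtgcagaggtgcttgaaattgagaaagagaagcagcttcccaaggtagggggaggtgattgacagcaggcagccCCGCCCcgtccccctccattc

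The printed *Col4a5* stretch holds a CCAAT box at position 55, the *Col4a6* stretch a GC box on the opposite strand at position 230, and the *Col4a3*/*Col4a4* stretch neither. No 2 of these matches overlap, and TATAAA was not found in the printed bases on either strand. The full RefSeq windows ran from 250 bases before to 50 bases after a start. Of the 35 matching symbols with a window, 13 held a CCAAT box, against 37.4% of all 32851 windows. 22 of 35 held a GC box, against 35.7% of all windows, and 5 of 35 held TATAAA, against 13.6%. These are matches of letters only. The 35 symbols had 38 windows, and a symbol counted if any of its windows matched, so counts by symbol stand beside shares by window.

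*Col4a1* and *Col4a2* were read unequally in T-type cells. *Col4a1* was read in 5 of 6 T-type cells, with 753, 0, 611, 5.47, 7.78 and 270 normalized counts, and *Col4a2* had 0, 0, 0, 1.82, 0.648 and 2.56 in the same cells. In NR cells *Col4a2* had 49.2, 85.6, 126, 20.3 and 204, so every NR cell was above every T-type cell. S-type cells ran from 0 to 322 with a median of 83.3 and M-type cells had 459, 124, 118, 15.6 and 0.432. The log2 ratio of *Col4a2* in T-type to NR cells was -6.85 (-8.30 to -5.72), from 6 reads against 661. The ratio to S-type cells was -7.04 (-8.49 to -5.91), where 1 S-type cell at 0 overlapped the T-type. The T-type *Col4a1* level was 0.49 higher than NR (0.37 to 0.60) and stood to S-type at -1.13 (-1.22 to -1.03), within ranges that overlapped. *Col4a1* was highest in M-type cells, with 3106, 641, 709, 41.0 and 150, at a log2 ratio to NR of 2.25 (2.17 to 2.33) that stayed at 0.98 or more with any cell left out. The S-type ratio to NR was 1.61 (1.53 to 1.70), and 1.08 or more with any cell left out.

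*Col4a5* and *Col4a6*, partners in the basement membranes of skin and smooth muscle, were the most abundant chains of the network, at 9.50 and 19.3 RPKM. *Col4a6* had 6652, 1838, 3045, 178 and 7263 normalized counts in NR cells, and 224 to 3491 in M-type, 36.4 to 4674 in S-type and up to 3971 in T-type cells. The types overlapped, and the NR mean of 3795 was above the S-type mean of 1773, the M-type mean of 1481 and the T-type mean of 1426. *Col4a5* was lower in T-type cells, with 3.24, 87.7 and 1541 as lowest, median and highest, than in S-type cells with 92.0, 504 and 3075. The log2 ratio was -1.78 (-1.84 to -1.71), and between -3.55 and -1.21 with any cell left out.

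*Col4a3* and *Col4a4* were low, at 0.148 and 0.421 RPKM, and were mostly read in NR cells. *Col4a4* had 122, 2.27, 2.88, 331 and 710 normalized counts in NR cells, at most 3.28 in M-type and at most 19.5 in S-type cells, while the T-type cell J163_18 had 104 and J166_25 had 58.3. Its log2 ratio to NR was -7.57 (-8.49 to -6.80) for M-type, -5.88 (-6.39 to -5.41) for S-type and -3.05 (-3.34 to -2.78) for T-type cells, and each stayed past 2-fold with any cell left out. The groups overlapped in each case, because 2 NR cells were under 3 counts. *Col18a1*, the multiplexin whose cleaved end is endostatin, had single high cells in every type, with 4178 in the T-type cell J163_18, 3757 in the M-type cell J172_23, 949 in the NR cell J185_4 and 592 in the S-type cell J151_5. Its T-type ratio to NR was 1.44 (1.32 to 1.56), and -7.03 without J163_18.

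*Col8a1* was read in all 22 cells and averaged 59.5 RPKM. Its normalized counts were 1716, 4826 and 11498 in S-type (lowest, median and highest) and 3.24, 5502 and 29400 in T-type cells. M-type cells had 15161, 2295, 558, 3214 and 1388, and NR cells 4929, 608, 17361, 240 and 11076. No type stood apart, and all 3 ratios to NR were within 2-fold. *Col8a2*, its partner chain, was read in 12 cells at 0.512 RPKM, and the T-type cell J164_19 with 297 normalized counts held 97.9% of the T-type level.

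Among FACIT collagens, *Col9a1*, a chain of type IX collagen, was read in all 5 NR cells with 453, 931, 23.7, 44.3 and 1227 normalized counts. It was read in 1 T-type cell with 5.12, in 2 M-type cells with 14.0 and 0.432, and in 4 S-type cells, with 0, 1.33 and 396 as lowest, median and highest. Every NR cell was above every T-type and every M-type cell, and the S-type overlapped NR. The log2 ratio to NR was -9.29 (-10.51 to -8.31) for T-type, -7.54 (-8.23 to -6.92) for M-type and -2.51 (-2.63 to -2.40) for S-type cells. Without the M-type cell J173_25, which had all but 1 of the M-type reads, the M-type ratio was -12.28. These ratios share the NR cells, and 3818 reads in NR stood against 8 in T-type and 21 in M-type cells.

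*Col9a3*, another type IX chain, averaged 4.94 RPKM. S-type cell J150_3 had 4593 normalized counts, 95.6% of the S-type level, and the other S-type cells had 6.50, 68.8, 136, 0 and 0.742. NR cells had 1.21, 277, 99.2, 150 and 198, M-type cells 1.88, 18.9, 36.1, 91.3 and 0.432, and T-type cells at most 5.45. The T-type ratio to NR was -6.86 (-9.14 to -5.30), from 3 reads against 1092, and the M-type ratio was -2.29 (-2.48 to -2.10). The S-type ratio to NR of 2.47 (2.37 to 2.56) was -1.77 without J150_3.

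*Col12a1*, a FACIT of tendon and fascia, was read in 21 cells. NR cells had 546, 547, 642, 120 and 1323 normalized counts, and the medians were 224 in M-type, 171.7 in S-type and 84.5 in T-type cells with ranges that overlapped. All 3 responding types were lower than NR by at least 2-fold, with log2 ratios of -1.04 (-1.12 to -0.97) for S-type, -1.65 (-1.75 to -1.56) for T-type and -1.62 (-1.70 to -1.54) for M-type cells. *Col16a1*, *Col19a1* and *Col22a1* had mean levels of 22.0, 13.6 and 27.7. *Col16a1* had 3 T-type reads and a T-type ratio to NR of -4.50 (-6.78 to -2.93). The NR cell J185_4 held 99.6% of the NR level of *Col19a1*, and the S-type cell J156_16 held 90.1% of the S-type level of *Col22a1*. *Col23a1*, the only transmembrane collagen compared, had no T-type read, and its S-type and M-type levels came to 94.6% and 97.2% from J154_8 and J175_18.

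Against NR, T-type cells were lower in most collagens. Of the 26 collagens compared, 18 were at least 2-fold lower in T-type cells (32.4% of all 12719 genes compared were) and 1, *Col18a1*, was at least 2-fold higher (28.6% of all genes). The median log2 ratio of the collagens was -2.01, or -3.46 to -1.60 with a cell left out, and that of all genes -0.05. 12 of the 18 stayed at least 2-fold lower with any cell left out (17.2% of all genes did). *Col18a1* did not stay at least 2-fold higher (8.88% of all genes did). The 12 were *Col2a1*, *Col4a2*, *Col4a4*, *Col4a6*, *Col5a1*, *Col5a3*, *Col9a1*, *Col9a3*, *Col11a2*, *Col12a1*, *Col16a1* and *Col23a1*. *Col11a2* reached the minimum of 5 cells only through the NR cells, where it was highest, so its lower calls against NR, in each of the 3 comparisons, followed from that filter. In 2 collagens, *Col4a2* and *Col9a1*, every T-type cell was below every NR cell (0.802% of all genes), and none was above every NR cell in any (0.189%). Without the 3 T-type cells of low size factor, 17 were lower and 1 was higher, with a median of -3.18 beside -0.43 over all genes. The higher one was then *Col1a2* at 1.64, since *Col18a1* was at -6.29. No share of all genes is given without these cells, and the shares above do not apply to these 2 counts.

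Against S-type, T-type cells had 13 of 26 collagens at least 2-fold lower (32.2% of all genes) and 5 at least 2-fold higher (26.0%). The median was -0.87, or -1.59 to -0.42 with a cell left out, and -0.07 over all genes. The call of *Col1a1* rests on the filter in the same way, since it reached 5 cells only with the S-type cells. The lower set included 5 of 6 FACIT genes, 1 of which, *Col19a1*, had 3 reads or fewer in both types and gives no fold. 9 collagens stayed lower with any cell left out (19.1% of all genes did), led by *Col9a3* at -9.32 (-11.60 to -7.77), *Col4a2* at -7.04 and *Col9a1* at -6.78 (-8.00 to -5.80). Of the 5 higher, *Col1a2*, *Col4a4*, *Col8a2*, *Col18a1* and *Col27a1*, only *Col4a4* stayed at least 2-fold higher with any cell left out (6.62% of all genes did), at a log2 ratio of 2.82 (2.28 to 3.40). In no collagen were all T-type cells on 1 side of all S-type cells, against 0.645% of all genes for lower and 0.126% for higher. Without the 3 T-type cells of low size factor, 14 were lower and 4 higher, with a median of -1.08 beside -0.46 over all genes. No share of all genes is given for this setting, and the shares above do not apply to it.

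Against NR, S-type cells had 10 of 26 collagens at least 2-fold lower (22.4% of all genes) and 6 at least 2-fold higher (25.1%), with a median of -0.80 and of 0.03 over all genes. With a cell left out this median ran from -1.06 to 0.07, so it did not keep its sign. Few of these calls outlasted the loss of a cell. *Col4a4*, *Col9a1* and *Col11a2* stayed lower (7.90% of all genes did), and *Col4a1* stayed higher (11.4%). No collagen had its cells apart (0.204% of all genes in each direction). The lower call of *Col11a2* and the higher call of *Col1a1* rest on the filter on cells. The higher calls of *Col9a3*, *Col22a1* and *Col23a1* turned to log2 ratios of -1.77, -1.31 and -2.13 without J150_3, J156_16 and J154_8.

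M-type cells had 15 of 26 collagens at least 2-fold lower than NR (28.1% of all genes) and 4 at least 2-fold higher (19.8%). The median was -1.49, or -2.11 to -0.85 with a cell left out, and -0.20 over all genes. 9 of the 15 stayed lower with any cell left out (11.3% of all genes did), namely *Col1a2*, *Col2a1*, *Col4a3*, *Col4a4*, *Col5a3*, *Col9a1*, *Col9a3*, *Col12a1* and, through the filter, *Col11a2*. *Col3a1*, also among the 15, reached 5 cells only with NR. Of the 4 higher, *Col4a1*, *Col11a1*, *Col18a1* and *Col23a1*, none stayed past 2-fold with any cell left out (7.54% of all genes did). *Col9a1* had every M-type cell below every NR cell (0.322% of all genes), and no collagen had them above (0.275%).

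**Figure D3:**
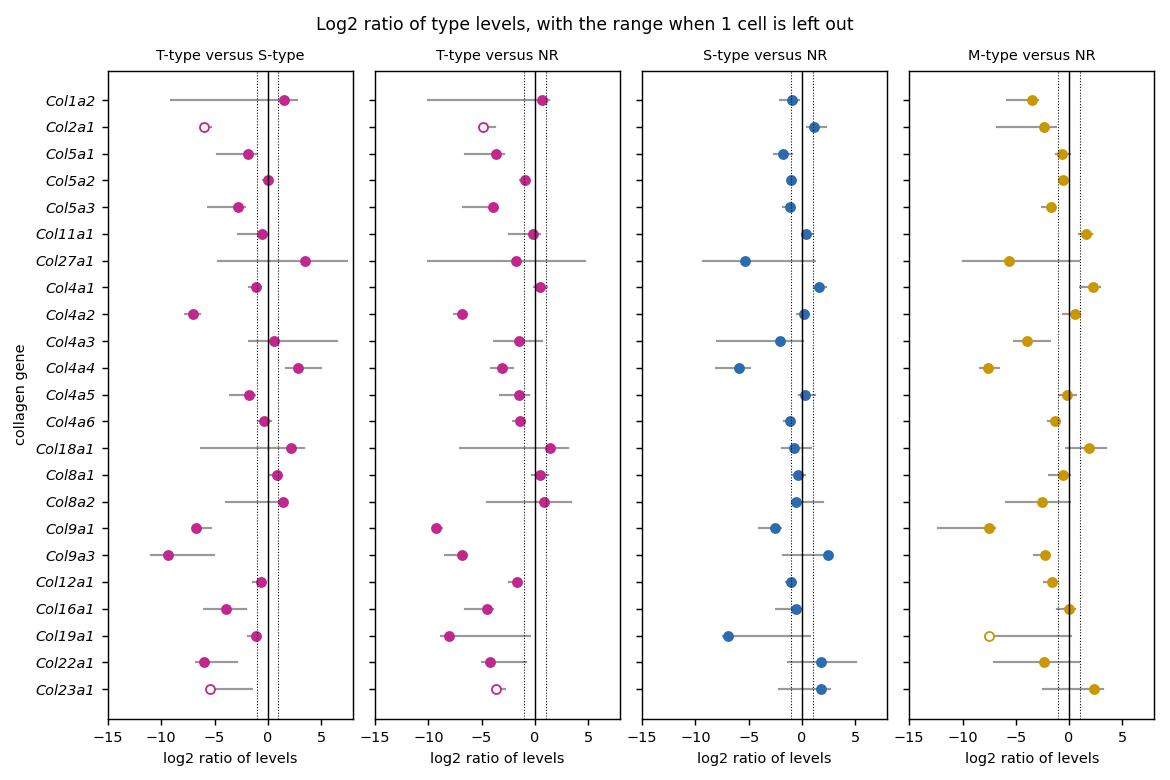
Log2 ratio of type levels for the 23 collagens described singly (rows) in 4 comparisons (panels), with dotted lines at 2-fold, grey lines for the range with each cell left out in turn and open markers for ratios formed with the floor of a type at 0. 16 of the 23 lay at or below the lower 2-fold line for T-type against NR. There the grey line of *Col18a1*, carried by a single T-type cell, crossed 0, and that of *Col5a1*, also carried by 1 T-type cell, did not.

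The 23 collagens described singly had their highest mean level in NR cells for 11 genes, in M-type for 5, in S-type for 4 and in T-type for 3, and their lowest mean in T-type cells for 13 genes, in M-type for 7, in S-type for 2 and in NR for 1. *Col2a1* and *Col22a1* met the level minimum only through S-type cells, where they were highest, so that place followed from the filter. Of all 11551 genes at the same minimum levels, 26.1% were highest in NR and 33.0% in T-type cells, and 31.6% were lowest in T-type and 26.1% in M-type cells. 8 were at least 2-fold lower than NR in all 3 responding types, *Col4a3*, *Col4a4*, *Col4a6*, *Col5a3*, *Col9a1*, *Col12a1*, *Col19a1* and *Col27a1* (8.67% of all genes were), and these comparisons share the NR cells. Only *Col4a4* and *Col9a1* stayed so with any cell left out. For S-type against NR, *Col4a6*, *Col5a3* and *Col12a1* then reached -0.72, -0.73 and -0.59. *Col19a1* met the level minimum only through NR cells, so its call followed from that filter. Its level was 59.1 in NR, 0.475 in S-type and 0.215 in T-type cells, with no M-type read. A single NR cell held 99.6% of the NR level of *Col19a1*, 99.2% of that of *Col27a1* and 82.2% of that of *Col4a3*. Without that cell *Col4a3* turned to higher than NR in S-type and T-type cells and *Col27a1* in all 3 types. For *Col19a1* the S-type ratio to NR was then 0.70, from 3 S-type reads. Its M-type ratio of 0.13 came from the floor alone and is no higher level. Single cells often made up a level. 1 cell held most of the level of 18 of 21 collagens with a read in T-type cells, 18 of 22 in M-type, 11 of 23 in S-type and 12 of 23 in NR cells. Over all genes at the same mean level the shares were 69.9%, 46.9%, 41.3% and 54.6%.

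Chains that form trimers together were read at unequal levels per length. *Col8a1* was above *Col8a2* in 22 of 22 cells, and *Col11a1* above *Col11a2* in 21. *Col4a1* at 5.34 RPKM was above *Col4a2* at 1.10 RPKM in 19 cells, and both were read in 18. *Col4a6* was above *Col4a5* in 15 cells and below it in 7. *Col1a2* at 5.62 RPKM was above *Col1a1* at 0.119 RPKM in 16 cells, and in 12 cells *Col1a2* was read without *Col1a1*. Type IX collagen takes 3 chains, and *Col9a2* had 27 reads in the NR cell J183_1 and none elsewhere, while *Col9a1* and *Col9a3* were read together in 10 cells. How evenly the RNA amplification covered these long transcripts was not tested, so an RPKM over all exons compares chains only roughly.

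**Figure D4:**
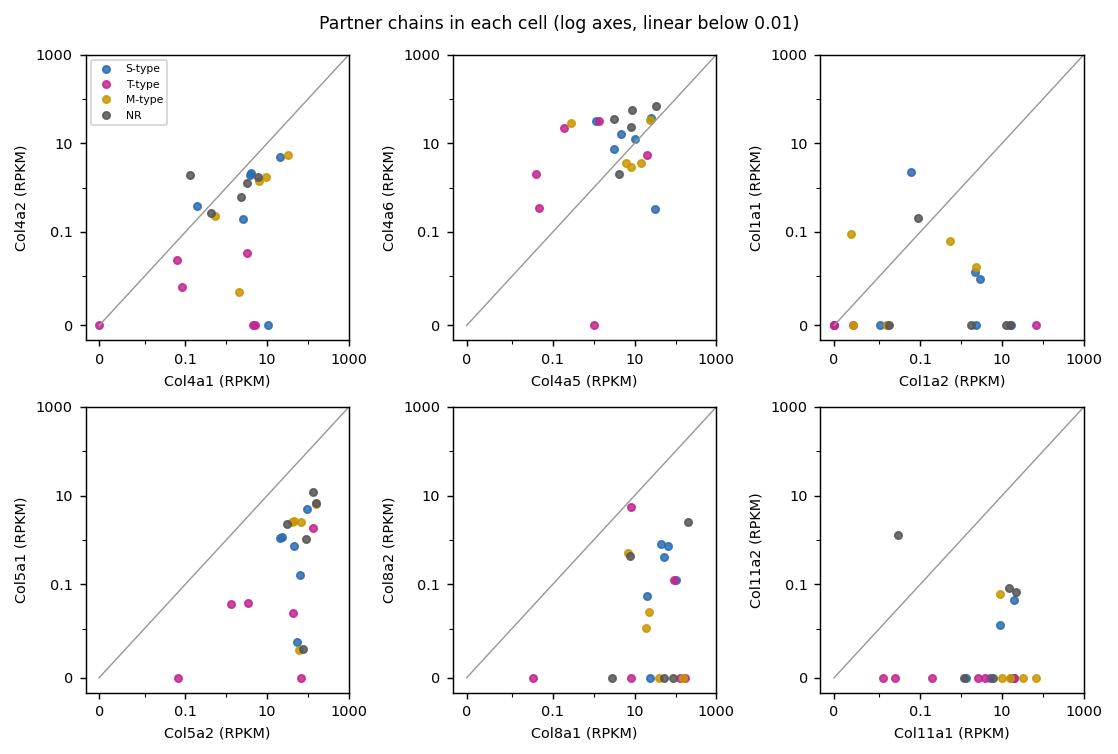
RPKM of partner chains in each of 22 cells, 1 point per cell colored by type, on axes that are linear near 0 and logarithmic above, with a diagonal for equal levels. *Col5a2* lay above *Col5a1* and *Col8a1* above *Col8a2* in all 22 cells, and *Col4a5* and *Col4a6* lay on both sides of the diagonal.

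The genes that make, cross-link and bind collagen were described by list. Their counts stand against 32.4% of all genes at least 2-fold lower and 28.6% at least 2-fold higher for T-type against NR. All 21 genes for modification and folding inside the cell were compared. In T-type cells 10 (47.6%) were lower and 2 (9.52%) higher than in NR cells, with a median log2 ratio of -0.94. In M-type cells 11 (52.4%) were lower and 2 higher, with a median of -1.005, against 28.1% and 19.8% of all genes. *P4hb*, the shared subunit of prolyl hydroxylase, was at 8364 normalized counts in T-type and 7193 in NR cells. *P4ha1*, its catalytic partner, was at 1602 in T-type, 2157 in S-type, 3069 in M-type and 4819 in NR cells. *Mia3*, which helps export procollagen, was at 952 in T-type and 1830 in NR cells, and *Ppib*, a proline isomerase that helps the helix fold, differed by 0.54 or less from NR on the log2 scale in each type.

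Of 15 genes for processing and cross-linking outside the cell 12 were compared, and 7 (58.3%) were at least 2-fold lower and 4 (33.3%) higher in T-type than in NR cells, with a median of -2.66. *Tll1*, counted among the 4 higher, had no T-type read and was called only because the T-type floor exceeded its NR level of 0.120. *Loxl3*, a lysyl oxidase that cross-links collagen, was at 97.8 in T-type, 264 in M-type, 492 in S-type and 936 in NR cells. *Loxl2*, another lysyl oxidase, was at 134 in T-type and 137 in NR cells. *Bmp1*, the enzyme that trims fibrillar procollagens, was at 71.7 in T-type and 321 in NR cells, while *Sparc*, a secreted collagen chaperone, was at 38493 in T-type and 18523 in NR cells. Of 8 receptors compared, 2 (25.0%) were lower and 1 (12.5%) higher in T-type than in NR cells. The collagen-binding integrin chain *Itga1* was at 247 in T-type, 851 in M-type, 2725 in S-type and 2837 in NR cells, and its partner *Itgb1* was within 2-fold of NR in every type. *Ddr2*, a receptor kinase for fibrillar collagen, was at 2250 in S-type, 2161 in M-type, 819 in NR and 594 in T-type cells.

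Of 9 genes for collagen degradation and its inhibitors compared, 2 (22.2%) were lower and 3 (33.3%) higher in T-type than in NR cells, with a median of 0.24. *Ctsk*, counted among the 3 higher, likewise had no T-type read, and only the floor lifted it over its NR level of 0.121. The protease inhibitors *Timp3* and *Timp2* were at 39935 and 11442 in T-type and 24474 and 9672 in NR cells, and the collagenase *Mmp14* at 376 and 573, all within 2-fold. *Timp4*, another inhibitor, was at 1050 in T-type, 580 in S-type, 429 in M-type and 133 in NR cells. Of 13 other components of basement membranes compared in T-type cells, 10 (76.9%) were lower and 2 (15.4%) higher than in NR, with a median of -1.64. Against S-type cells 10 were lower and none higher, with a median of -1.37, where 32.2% and 26.0% of all genes were. Fibronectin (*Fn1*) was at 6705 in T-type, 20771 in S-type, 35038 in M-type and 31617 in NR cells, and the laminin chains *Lama5* and *Lamb2* at 250 and 926 in T-type and 1451 and 2582 in NR cells. *Agrn*, a basement membrane proteoglycan, was at 5145 in T-type and 8116 in NR cells. Against NR, S-type cells had 4 of the 13 (30.8%) at least 2-fold higher and none lower, where 25.1% and 22.4% of all genes were.

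*Col4a3bp*, the symbol match that is no collagen, was read in 20 cells. Its mean was 1505 normalized counts in S-type, 1333 in M-type, 716 in NR and 270 in T-type cells, at log2 ratios to NR of 1.07 (1.02 to 1.12), 0.90 (0.85 to 0.95) and -1.41 (-1.50 to -1.32). Counting it with the collagens gave 19 of 27 lower in T-type than in NR cells.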

How the data were processed

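Raw counts per gene symbol were deposited by the authors for 22 cells. After trimming, STAR placed the reads on GRCm38, and VERSE (a modified HTSeq) assigned uniquely aligned reads to exons. Tool versions and the strand setting are not given in the sources used here. The table holds no values of other samples. The type written in the table matched the label for 22 of 22 cells, and types were taken from the labels.

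Each cell was scaled by a median-of-ratios size factor taken over 3670 genes read in every cell. A type's level was the mean over its cells, and a type at 0 was set to a floor of 3 reads over the type. The floor can exceed a level from few reads, so a type without a read could be called higher. The shares of all genes were formed in the same way. A gene had to be read in at least 5 cells, a 2-fold ratio was the limit for a call, and collagens with a mean level of at least 10 were described singly. Partner chains were named beside them, and at most 4 genes per pathway list, those with the highest mean level. *Tll1* and *Ctsk* were named besides, for calls that came from the floor alone. Intervals are 95% binomial (Clopper-Pearson) intervals, exact for the share of reads in a cell. For ratios, the interval of the pooled reads of 2 types was shifted on the log2 scale. The shift was the difference between the ratio of levels and the ratio of pooled reads. Because each type counted as 1 sample, no test between types was run, and Dixon's criterion only flagged single cells within a type. Exon lengths, coordinates and gene starts came from the GENCODE annotation of GRCm38, and promoter windows from RefSeq (GRCm38.p6), which matched 35 of the 45 symbols. A chain of related sequence can share reads with another, and non-unique reads were not counted.

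Alternatives were CPM averaged over cells or of pooled reads, TMM factors, thinned cells, a pseudocount of 1, no filter, the level minimum and each cell left out. The collagens and the gene lists were chosen with earlier results of these data known. Python 3.11.15 with pandas 2.3.3 and SciPy 1.17.1 and R 4.3.3 with edgeR 4.0.16 (TMM factors only) were used.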

Additional observations from a re-analysis of the deposited data

Results flagged for a closer look

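Dixon's test at the 95% level was applied to 30 measures of collagen expression in the 4 types, and it set apart 1 cell in 23 of 120 groups of cells. Its chance rate of about 1 in 20 groups holds for independent groups of normally distributed values. Several groups here held mostly cells without a read, and the shares of collagen reads depend on each other. The 23 groups therefore cannot be set against that rate. Values of genes are log2 of the normalized count plus 1.

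The T-type cell J165_23 had 4.26% of its collagen reads in *Col5a2* and *Col8a1*, where the other T-type cells had 63.4% to 89.9%, and it had 84.2% in the basement membrane network and multiplexins (others 3.73% to 24.7%) and 9.77% in FACIT genes (others 0.0150% to 3.18%). This cell held 399 collagen reads. The NR cell J186_5 had 90.6% of its collagen reads in fibril-forming genes, where the other NR cells had 43.0% to 45.6%. FACIT genes made up 16.7% of collagen reads in the S-type cell J150_3 (others 2.30% to 6.00%) and 19.7% in the NR cell J183_1 (others 2.12% to 6.70%).

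Cells far above the others of their type were the T-type cell J166_25 with 13.21 for *Col1a2* (others at most 2.38) and 2.61 for *Col9a1* (others 0), the T-type cell J163_18 with 12.03 for *Col18a1* (at most 3.44) and 9.34 for *Col27a1* (at most 1.498), and the T-type cell J164_19 with 8.22 for *Col8a2* (at most 2.89). Among M-type cells, J174_13 had 4.20 for *Col2a1*, 4.58 for *Col8a2* and 4.47 for *Col22a1*, and J173_25 had 3.91 for *Col9a1* and 5.30 for *Col27a1*. Among S-type cells, J153_6 had 5.99 for *Col4a3* and 4.36 for *Col4a4*, and J154_8 had 5.77 for *Col27a1*. The NR cell J185_4 had 8.21 for *Col19a1*. Cells far below the others were the S-type cell J154_8 with 4.07 for *Col4a1* (others 8.22 to 10.57), the M-type cell J172_23 with 0.70 for *Col5a1* (others 7.74 to 9.13) and the NR cell J182_2 with 1.15 for *Col9a3* (others 6.65 to 8.12).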

How the results depend on the processing

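With 1 sample per type, the spread between animals is unknown and single cells decide many levels. Of 130 alternative values for the counts, medians, shares and numbers of genes, 121 moved by less than the spread or stayed within 1.5 times the main count. The 9 that moved were counts of collagens at least 2-fold higher and numbers of genes read. T-type against S-type gave 3 higher with CPM of pooled reads and 10 with no filter (main 5). T-type against NR gave 0 with mean CPM and with TMM factors, 2 with thinned cells and 6 with no filter (main 1), and M-type against NR gave 8 with no filter (main 4). No share of all genes stands beside these counts. With no filter, *Col6a3*, *Col15a1* and *Col25a1* counted as higher than S-type without a T-type read, through the floor alone. *Col6a2*, *Col6a3*, *Col6a4* and *Col6a5* did so for T-type against NR, and *Col14a1*, without an M-type read, for M-type against NR. With at least 5 reads required, collagen genes read were 8 in T-type and 13 in M-type cells. The median of T-type against S-type was 0.13 with no filter, opposite in sign to the main -0.87, beside 0.26 over all genes. Collagens without a T-type read entered it at the floor. By the rule on the spread this median is counted among the 121. Mean CPM moved the median of all genes to -0.44 for T-type against S-type and -0.45 against NR, and CPM of pooled reads to -0.55 and -0.52, beside collagen medians of -1.30, -2.49, -1.18 and -2.82. With 1 cell left out, collagens at least 2-fold higher numbered 3 to 7 for T-type against S-type, 1 to 4 for T-type against NR, 4 to 7 for S-type against NR and 2 to 5 for M-type against NR. Lower ones numbered 10 to 15, 15 to 20, 7 to 14 and 12 to 16.

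*Col18a1* reversed under CPM of pooled reads, to -0.12 for T-type against S-type and -1.03 against NR. Leaving out the 3 T-type cells of low size factor, chosen after seeing the data, gave *Col18a1* -5.56 against S-type and -6.29 against NR, *Col8a2* -3.15 and *Col27a1* -3.58 against S-type. The causes were not tested. Among the 23 collagens described singly, these ratios past 2-fold took both signs with each cell left out in turn. For T-type against S-type they were *Col1a2* (-9.12 to 2.73), *Col8a2* (-3.88 to 1.76), *Col18a1* (-6.30 to 3.36) and *Col27a1* (-4.69 to 7.45). For T-type against NR they were *Col4a3* (-3.79 to 0.65), *Col18a1* (-7.03 to 3.06) and *Col27a1* (-10.03 to 4.73). For S-type against NR they were *Col4a3* (-7.97 to 0.10), *Col9a3* (-1.77 to 2.84), *Col19a1* (-7.39 to 0.70), *Col22a1* (-1.31 to 5.10), *Col23a1* (-2.13 to 2.66) and *Col27a1* (-9.27 to 1.21). For M-type against NR they were *Col8a2* (-5.96 to 0.041), *Col18a1* (-0.28 to 3.46), *Col19a1* (-7.85 to 0.13), *Col22a1* (-7.03 to 0.94), *Col23a1* (-2.47 to 3.21) and *Col27a1* (-9.99 to 0.92). The *Col19a1* ratios of M-type to NR were formed with the M-type floor, since it had no M-type read. No paired analysis was possible because the replicate numbers only name the cells of a type and no test between types was run.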
